A study of Saccharomyces cerevisiae with 16 samples.

Results

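The genes described here are 10 transcription factor genes that drive the yeast cell cycle, HCM1, SWI4, SWI6, MBP1, FKH1, FKH2, NDD1, YOX1, YHP1 and SWI5, out of 6002 nuclear protein-coding genes. They were listed by name, and were chosen by their function with their H3K18ac levels within 300 bp of the start codon, per time point, in view. These levels are therefore given as a description, with no test. The measurement was H3K18ac, the acetylation of lysine 18 of histone H3, by ChIP-seq in the budding yeast Saccharomyces cerevisiae. All 16 libraries came from 1 strain (ZKY329, CEN.PK background, MATa, SPT7-FLAG::natMX), so every time point carries the FLAG-tagged SPT7, which codes for a subunit of the SAGA acetyltransferase complex. The cells were going through the Yeast Metabolic Cycle (YMC) in continuous culture. They were sampled once at each of 16 time points between 48.32 and 51.95 h, with no treatment and no replicate.

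The study names 3 phases of the cycle. OX, the oxidative phase, covers time points 3 to 5, RB, the reductive building phase, covers time points 6 to 11, and RC, the reductive charging phase, covers time points 1, 2 and 12 to 16. The phases thus hold 3, 6 and 7 libraries. RC joins the first and the last samples of the series, which can differ from each other. The nuclear genome was covered by 29.3 to 34.3 reads per base on average in the OX libraries, 31.4 to 36.0 in RB and 27.5 to 39.4 in RC. Every level below is the mean coverage of a window divided by the mean nuclear coverage of its library, so a level of 1 equals the genome average per base. In a bulk culture, a higher level in some cells and an intermediate level in all cells cannot be told apart. No division by H3 was made, so acetylation and nucleosome occupancy cannot be told apart either.

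Cell division in budding yeast is run by a relay of transcription factors. SBF (Swi4 with Swi6) and MBF (Mbp1 with Swi6) turn on genes for budding and DNA replication as cells leave G1, and the forkhead factor Hcm1 follows in S phase with genes for chromosome segregation. The forkhead factors Fkh1 and Fkh2, the latter with the coactivator Ndd1, act on the G2/M genes. Swi5 takes over at the end of mitosis, while the homeodomain repressors Yox1 and Yhp1 restrict a set of Mcm1-dependent genes to the M/G1 border. Acetylated H3K18 is found mostly around the starts of transcribed genes. In the YMC, cell division is gated and occurs in a limited part of the metabolic cycle.

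The 10 genes did not share 1 time course. HCM1 formed a single broad hump over RB, SWI4 and YOX1 had their lowest level at time point 4 in OX, YHP1 and SWI5 climbed to a peak at time point 13 in RC, and FKH1, FKH2, NDD1 and MBP1 were highest at time point 4. SWI6 was highest at time point 14. Start levels, the mean of the 300 bp on each side of the start codon, ran from 0.504 to 2.25 over the 10 genes. Among all 5733 genes with enough coverage, the median of the mean start level was 1.68. Each start level rested on 175 to 905 reads, which gives a counting error of 3.32% to 7.55% (SE). No more than 0.0938% of the bases of any member's start window, over all libraries, reached 92 reads, close to the coverage ceiling of 102 reads per base. This share does not exclude that the ceiling compressed high levels below it. A correction of coverage for the ceiling moved the highest time point of SWI6 from 14 to 11 and that of YOX1 from 13 to 10. It moved those of MBP1 and NDD1 from 4 to 9, of FKH1 from 4 to 10 and of FKH2 from 4 to 5.

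**Figure D1:**
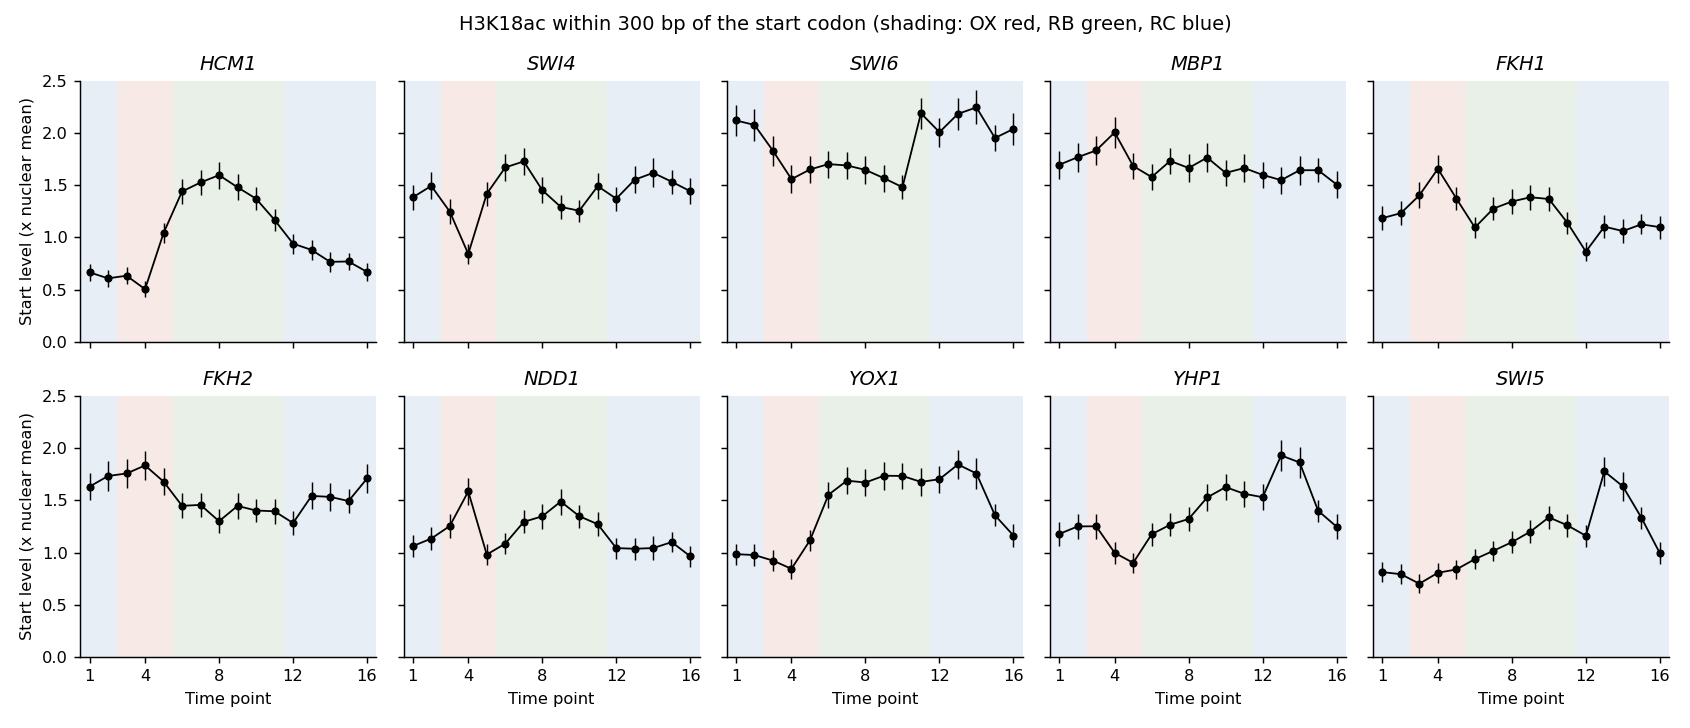
H3K18ac start level (vertical axis, multiples of the mean nuclear coverage) against time point (horizontal axis) for the 10 genes. Points are single libraries, bars are 95% counting intervals, and shading marks OX, RB and RC. HCM1 rises from 0.504 (time point 4) to 1.60 (time point 8), while MBP1 stays between 1.51 and 2.01.

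The fold between the highest and the lowest time point ordered the genes. It was 3.17 for HCM1 (95% counting interval 2.68 to 3.75), 2.54 for SWI5, 2.19 for YOX1, 2.14 for YHP1, 2.05 for SWI4 and 1.92 for FKH1. The other four had smaller folds, 1.65 for NDD1, 1.52 for SWI6, 1.43 for FKH2 and 1.33 for MBP1. On the log2 scale after adding 0.1 to each level, 4 of the 10 genes had a range above 1, against 19.9% of all 5733 genes. The median range was 0.91 for the 10 genes and 0.56 for all genes. SWI4, with a fold of 2.05 before the addition, had a range of 0.958 on this scale. When each gene's 16 levels were put in order, at most 2 of the 15 steps between neighbours in that order exceeded counting error. Single neighbouring ranks are therefore not resolved. The highest and lowest levels of each gene differed beyond counting error, which covers neither the scaling of the libraries nor the choice of the extremes. With the libraries scaled by median of ratios, SWI6 was highest at time point 11 instead of 14 and lowest at time point 4 instead of 10.

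SWI4, SWI6 and MBP1 encode the subunits of SBF and MBF. SWI4 (YER111C, chromosome V, 382595 to 385876, minus strand in the R64 assembly) encodes the DNA-binding subunit of SBF. Its start level in OX was 1.25 at time point 3, 0.842 at time point 4 and 1.42 at time point 5. In RB it ran from 1.26 to 1.73 with a median of 1.47, and in RC from 1.37 to 1.62 with a median of 1.49. The dip at time point 4 therefore lay below all 15 other libraries, and outside it the phases overlapped.

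SWI6 (YLR182W, chromosome XII, 517940 to 520351, plus strand) encodes the subunit shared by SBF and MBF. Its start level was 1.83, 1.56 and 1.65 in OX. It ran from 1.48 to 2.19 with a median of 1.67 in RB, and from 1.95 to 2.25 with a median of 2.08 in RC. All 7 RC libraries lay above OX and above 5 of the 6 RB libraries, the exception being time point 11 at 2.19. Most of this movement was on the upstream side, which ran from 1.34 to 2.39, against 1.55 to 2.14 downstream. The gene VTA1 is transcribed away from SWI6 with 269 bp between the coding regions, so the SWI6 upstream window contains the whole of this gap and 31 bp of VTA1. The 300 bp downstream of the VTA1 start ran from 1.04 (time point 5) to 2.13 (time point 14). The part of VTA1 in the SWI6 values was not tested.

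MBP1 (YDL056W, chromosome IV, 352877 to 355378, plus strand) encodes the DNA-binding subunit of MBF and had the flattest course of the 10. Its start level was 1.83, 2.01 and 1.69 in OX, 1.58 to 1.77 with a median of 1.67 in RB, and 1.51 to 1.77 with a median of 1.64 in RC. The phases overlapped, and only time point 4 stood above 2. SWI4 had its lowest level at that time point (r = −0.68 between the pair over 16 time points). With quantile normalization or the ceiling correction, MBP1 was highest at time point 9 instead.

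HCM1 (YCR065W, chromosome III, 229310 to 231004, plus strand) encodes the S phase forkhead factor and is itself a gene that SBF and MBF act on. Its start level in OX was 0.633 at time point 3, 0.504 at time point 4 and 1.04 at time point 5. In RB it ran from 1.17 to 1.60 with a median of 1.46. In RC it ran from 0.608 to 0.941 with a median of 0.766. All 6 RB libraries lay above the other 10, with no overlap. The level was 0.665 at time point 1, and it was back at 0.669 by time point 16. The upstream and downstream sides moved together (r = 0.93 over 16 time points), with folds of 2.87 and 3.44.

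Along HCM1, the difference between these time points was large around the start codon and small farther upstream. In the first 50 bp of the coding region the level was 0.695 at time point 4, 2.16 at time point 8 and 1.10 at time point 13. In the 50 bp just before the start codon it was lower than on either side at each of these time points, with 0.258, 0.898 and 0.524. Farther upstream, 550 to 600 bp before the start codon, the same libraries gave 2.24, 1.97 and 2.38. There the level at time point 8 was thus not the highest of them. The coding region of BUD31 ends 518 bp before HCM1.

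**Figure D2:**
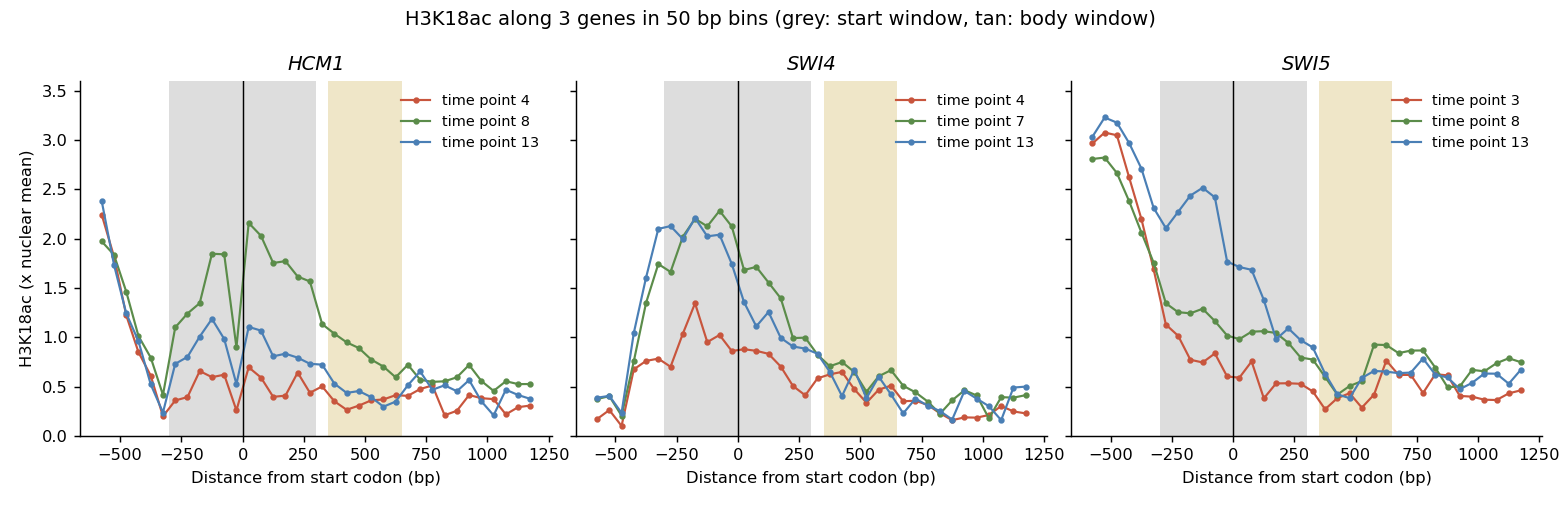
H3K18ac in 50 bp bins (vertical axis, multiples of the mean nuclear coverage) against distance from the start codon in bp, for HCM1, SWI4 and SWI5 at 3 time points each. Grey marks the start window and tan the body window. At time point 8 HCM1 reaches 2.16 in the first bin of the gene, against 0.695 at time point 4, while the bins farthest upstream lie close together.

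FKH1, FKH2 and NDD1 act on the G2/M genes. FKH1 (YIL131C, chromosome IX, 100781 to 102235, minus strand) had start levels of 1.40, 1.66 and 1.37 in OX. It ran from 1.10 to 1.39 with a median of 1.31 in RB, and from 0.865 to 1.23 with a median of 1.10 in RC. All OX and RC libraries were apart from each other, while RB overlapped both. The lowest level was at time point 12. ASG1, on the far side of a shared intergenic stretch of 546 bp, went from 1.16 (time point 12) to 3.04 (time point 4) in its own downstream window, and 54 bp of the FKH1 upstream window also belong to the upstream window of ASG1.

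FKH2 (YNL068C, chromosome XIV, 495701 to 498289, minus strand) had start levels of 1.76, 1.84 and 1.68 in OX, 1.30 to 1.46 with a median of 1.42 in RB, and 1.28 to 1.73 with a median of 1.54 in RC. RB lay below OX with no overlap. Its upstream and downstream sides were the least alike of the 10 genes (r = 0.37). The upstream side was the higher of the sides, at 1.64 to 2.34 against 0.839 to 1.36. The FKH1 and FKH2 courses were only loosely alike (r = 0.45), although both were highest at time point 4 and lowest at time point 12.

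NDD1 (YOR372C, chromosome XV, 1034807 to 1036471, minus strand) encodes the coactivator that Fkh2 recruits. Its start level was 1.25, 1.59 and 0.980 in OX. It then formed a second, lower hump in RB, from 1.09 to 1.49 with a median of 1.32 and the highest value at time point 9. In RC it ran from 0.964 to 1.13 with a median of 1.04. Of the 6 RB libraries, 5 were above all RC libraries. NUD1, which encodes a spindle pole body component, is transcribed away from NDD1 with 362 bp between the coding regions, and 238 bp of their upstream windows are the same bases.

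The repressor genes YOX1 and YHP1 both had their highest level at time point 13, which for YOX1 moved to time point 10 under the other scalings. YOX1 (YML027W, chromosome XIII, 221406 to 222563, plus strand) had start levels of 0.923, 0.844 and 1.12 in OX and rose to 1.55 at time point 6. In RB it ran up to 1.74 with a median of 1.68. In RC it ran from 0.976 to 1.84 with a median of 1.36, since time points 1, 2, 15 and 16 were low and time points 12 to 14 were high. The RB libraries were thus all above OX, while RC spanned both.

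YHP1 (YDR451C, chromosome IV, 1361120 to 1362181, minus strand) had start levels of 1.25, 0.997 and 0.901 in OX, 1.17 to 1.63 with a median of 1.42 in RB, and 1.18 to 1.93 with a median of 1.40 in RC. Its highest levels were 1.93 at time point 13 and 1.86 at time point 14, above all 14 other libraries. YOX1 reached its plateau at time point 7, whereas YHP1 was still at 1.27 there. The pair had r = 0.74.

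SWI5 (YDR146C, chromosome IV, 748613 to 750742, minus strand) encodes the activator of genes for mitotic exit and daughter cells. Its start level was 0.701, 0.806 and 0.838 in OX. It ran from 0.937 to 1.34 with a median of 1.15 in RB, and from 0.792 to 1.78 with a median of 1.16 in RC. All RB libraries were above OX, and the highest level came after RB, at time point 13, followed by 1.63 at time point 14. In the bin 100 to 150 bp before the start codon, the level was 0.744 at time point 3, 1.29 at time point 8 and 2.52 at time point 13. The course of SWI5 was close to that of YHP1 (r = 0.87) and of YOX1 (r = 0.83).

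With libraries scaled by their nuclear mean, the only scaling for which all genes were counted, few genes shared the time of the HCM1 peak. Time point 4 held the highest start level of 33.2% of all 5733 genes and time point 14 of 21.1%, against 1.01% for time point 8, 2.11% for time point 7 and 2.09% for time point 13. Time point 4 also held the lowest level of 17.4% of all genes, as it did for HCM1, SWI4 and YOX1. Of the 10 genes, 4 had their highest level at time point 4, 3 at time point 13 and 1 each at time points 7, 8 and 14. The peaks of HCM1, SWI4, YHP1 and SWI5 stayed at the same time point under 3 other scalings of the libraries. Those of the other six moved under at least 1 of these scalings, to time point 10 for YOX1, 11 for SWI6, 9 for NDD1 and MBP1, 10 for FKH1, and 5 or 16 for FKH2.

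Among 5733 genes, those with the course most like HCM1 over 16 time points were CSI2 (r = 0.97), SVS1 (0.96), SIM1 (0.95), MCD1 (0.95) and HSL1 (0.94). With Spearman's rho in place of r, or with the downstream window alone, 3 of these 5 genes remained among the closest 5. MCD1 encodes a subunit of cohesin and HSL1 a kinase of the G2/M morphogenesis checkpoint. CSI2 went from 0.754 (time point 4) to 1.90 (time point 8), and MCD1 from 0.518 (time point 3) to 1.54 (time point 8). These correlations come from the same 16 libraries, whose neighbours in time resemble each other, so they are a description only.

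For YOX1 the closest courses were those of PCL1, a G1 cyclin of the Pho85 kinase, and SRL1 (r = 0.96 each). For YHP1 they were CLB1, a mitotic cyclin (0.92), and CHS2, the chitin synthase of the septum (0.89). For SWI5 they were ALK1 (0.94) and CLB2, the major mitotic cyclin (0.93). CLB2 went from 0.624 (time point 3) to 1.47 (time point 13).

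The closest to FKH1 were RKM3 (0.92) and BFR2 (0.90), and to FKH2 they were ARB1 (0.94) and THI73 (0.94), BFR2 and ARB1 being ribosome biogenesis genes. The closest to SWI4 were MAL33 and SDH1, a subunit of succinate dehydrogenase (0.87 each). For SWI6 they were PFU1 (0.97) and ECM14 (0.96), for MBP1 PHO91 and CAX4 (0.91 each), and for NDD1 MYO2 and its divergent neighbour NUD1 (0.84 each). NUD1 shares part of its upstream window with NDD1.

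**Figure D3:**
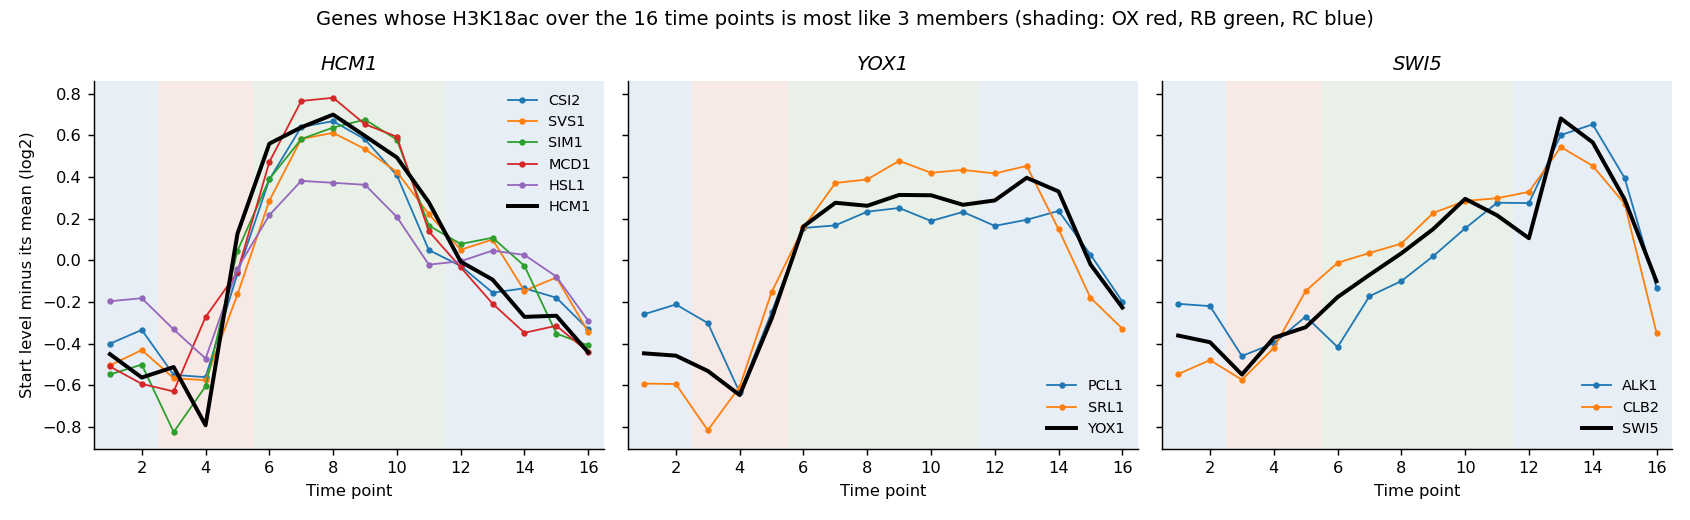
Start level (log2, minus its own mean over time) against time point for HCM1, YOX1 and SWI5 in black and the genes with the most similar course in colour. Shading marks OX, RB and RC. The 5 genes shown with HCM1 have r from 0.94 to 0.97, and CSI2, SVS1 and MCD1 are highest at time point 8 as HCM1 is.

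Tests were made in the gene body, 350 to 650 bp past the start codon, which shares no base with the start windows but comes from the same libraries. The body begins close to the end of the start window, so the windows are not independent. In HCM1 at time point 8 the level fell from 1.57 (250 to 300 bp) to 0.703 (550 to 600 bp). Whether signal of the start reaches into the body was not tested. H3K18ac is lower there than at the start, by a mean of 2.57-fold for SWI4 and 1.72-fold for HCM1, while YHP1 had about equal levels in both windows (ratio of start to body 0.963). Levels were compared on the log2 scale after adding 0.1, with limma over all genes and Benjamini-Hochberg adjustment. These p-values treat time points as independent samples, although neighbours in time resemble each other, so they can be too small.

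HCM1 had higher H3K18ac in its body in RB. The level there in RB ran from 0.473 to 0.864 with a median of 0.816, against 0.457, 0.343 and 0.514 in OX and 0.409 to 0.601 with a median of 0.470 in RC. Time points 6 to 10 lay above all non-RB libraries, and time point 11 overlapped them. The RB difference was 0.62 on the log2 scale (SE 0.11, limma adjusted p = 0.000382). The OX difference was −0.41 (SE 0.13, adjusted p = 0.0246), a call that was lost without time point 4 (adjusted p = 0.281). In the last 300 bp of HCM1 the RB difference was 0.22 and did not pass the test (adjusted p = 0.0887).

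In all, 6 of the 10 genes were higher in RB in the body and none was lower, against 36.4% of 4467 genes called higher and 4.14% called lower. The median RB difference was 0.24 for the 10 genes and 0.14 for all genes tested. Beside HCM1, the genes higher in RB were FKH1 by 0.32, NDD1 by 0.29, SWI5 by 0.28, MBP1 by 0.26 and YOX1 by 0.22. The FKH1 body level had a median of 1.10 in RB and 0.688 in RC, and those of OX were 0.703, 1.08 and 1.17. With libraries scaled by median of ratios, the all-gene RB median fell to −0.00 and the split of all genes went from 1628 higher and 185 lower to 427 and 550. The RB call of HCM1 was then the only one of the 6 that held, with 0.48 (adjusted p = 0.00347).

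In OX, 2 of the 10 genes were lower, HCM1 and YOX1 by −0.21, and none was higher, against 16.8% and 13.7% of all genes. The YOX1 call was lost with median-of-ratios scaling (−0.16, limma adjusted p = 0.132) and in a body window of 500 bp (adjusted p = 0.251), and the HCM1 call with quantile normalization (−0.26, adjusted p = 0.0620). In RC, 3 were lower and none was higher, against 31.7% and 8.22%. FKH1 fell by 0.48 (adjusted p = 0.000199), with RC levels of 0.627 to 0.758 and a median of 0.688. NDD1 fell by 0.36 (adjusted p = 0.00107), with RC levels of 0.471 to 0.620. All 7 RC libraries of NDD1 were below all 6 RB libraries. FKH2 fell by 0.22 (adjusted p = 0.0283). The FKH1 and NDD1 calls held under the 3 other scalings and the FKH2 call did not.

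**Figure D4:**
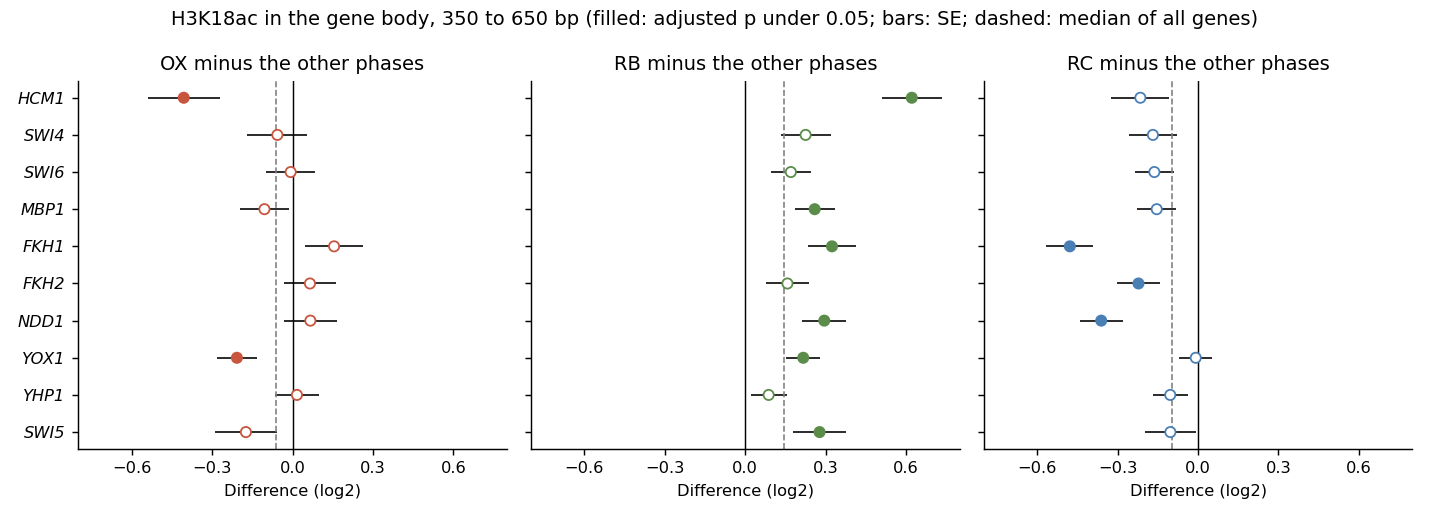
Difference of each phase from the mean of the other phases in the gene body (horizontal axis, log2) for the 10 genes. Filled points have a limma adjusted p under 0.05, bars are SE, and the dashed line is the median of all genes. HCM1 is farthest to the right in RB, at 0.62, and FKH1 farthest to the left in RC, at −0.48.

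Tested over time with a cubic polynomial instead of phases, 8 of the 10 genes changed in the body, against 68.9% of 4467 genes. HCM1 (adjusted p = 0.0766) and YOX1 (0.0636) were the exceptions. A cubic polynomial describes 56.5% of a step that is confined to RB. FKH1 had the smallest adjusted p, 0.000513, followed by NDD1 with 0.000952. With cosine and sine terms instead of the cubic, 9 of the 10 genes were called, against 3521 of the 4467.

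The 300 bp downstream of the start codon belong to the windows that the choice of the 10 genes used, so no test of these genes is given there. The window served for other genes of the pathway, taken from lists by function. These lists were chosen with earlier results of these data known, so their counts are not an independent test. Of all 5713 genes tested there, 31.4% were higher and 14.6% lower in OX, 6.07% and 23.4% in RB, and 23.0% and 25.3% in RC. Over time, 64.2% of all genes were called in this window. With libraries scaled by the ceiling correction, the all-gene OX median there went from 0.06 to −0.14, and the RB split went from 347 higher and 1336 lower to 1295 and 627.

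Most targets of SBF and MBF had higher H3K18ac in RB. Of 25 such genes, 16 were higher in RB and none was lower, against 6.07% and 23.4% of all genes. The median RB difference was 0.42 against −0.08 for all genes, and 13 were lower in RC (25.3% of all genes). MCD1, for cohesin, had a level of 1.00 to 1.69 in RB, against 0.628 to 0.843 in OX and up to 0.901 in RC. Its RB difference was 0.87 (SE 0.11, adjusted p = 0.000215). SWE1, for the kinase that holds back mitotic cyclin-Cdk, differed by 0.74 in RB. GIC2, which acts in bud emergence, fell by 1.09 in RC. In OX, 7 genes of the list were lower, among them CDC21, thymidylate synthase, with −0.48, and GIC1 with −0.47, while GIC2 was higher by 0.52. Without time point 4 none of the 7 calls in OX remained, while the count higher in RB ran from 15 to 23 over the 7 alternatives tried. Over all genes, the count higher in RB ran from 241 in the upstream window to 1295 with the ceiling correction, against 347 with nuclear-mean scaling downstream. The 23 came with the ceiling correction.

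Of the spindle and kinetochore genes, a group that includes genes Hcm1 acts on, few were called in any 1 phase. Of 22 genes, 3 were higher and 1 lower in RB, against 6.07% and 23.4% of all genes. The median RB difference was 0.05, against −0.08 for all genes. STU2, a microtubule polymerase, rose by 0.41 in RB (adjusted p = 0.00165) and DAM1, a kinetochore protein, by 0.15, while the checkpoint gene MAD1 was lower by −0.19. In OX only SPC34 was called, higher by 0.18, against 31.4% of all genes higher and 14.6% lower. In RC, MAD1 and NUF2 were higher, and STU2 and SPC42 were lower, against 23.0% and 25.3% of all genes.

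Of 18 genes of the G2/M cluster that Fkh2, Mcm1 and Ndd1 act on, 4 were lower in OX (14.6% of all genes), 1 was higher in RB (6.07%), and 6 were higher and 1 lower in RC (23.0% and 25.3%). HOF1, which acts in cytokinesis, was higher in RC by 0.66 with levels from 0.792 to 2.19, and CHS2 by 0.46 with levels from 0.977 to 2.39. Both genes overlapped the other phases at their low end. CLB4 was lower in RC by −0.12. In OX, CHS2 differed by −0.52 and CLB1 by −0.47, and CLB1 was the gene higher in RB, by 0.33. The count higher in RC was 2 without time point 4 and also 2 without time point 14, and no gene was lower in OX without time point 4. The count lower in OX was 9 with median-of-ratios scaling, 11 with the ceiling correction and 8 in the upstream window. Over all genes, the count lower in OX was 1440, 2268 and 954 in the same order, against 832 with nuclear-mean scaling downstream.

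Of 21 genes of the M/G1 border, 10 were lower in RB and none was higher, against 23.4% and 6.07% of all genes. Targets of Swi5 and genes with early cell cycle boxes are among the 21. EGT2 and DSE4, for enzymes of mother and daughter cell separation, differed by −0.47 and −0.43 in RB and by 0.42 and 0.47 in RC. In OX 5 were higher, a share below the 31.4% of all genes, among them MCM3, a subunit of the replicative helicase, by 0.58, and FAR1, the Cdk inhibitor of the pheromone response, by 0.51. In RC 5 were higher and 4 lower, near or below the 23.0% and 25.3% of all genes, the latter with MCM3 and CLN3. The count lower in RB was 2 with median-of-ratios scaling and 1 with the ceiling correction. Over all genes it was 786 and 627, against 1336 with nuclear-mean scaling. The count higher in OX was 2 without time point 4, and 886 over all genes, against 1792 with it.

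Of 14 regulators that work with the 10 factors, 4 were higher and 1 lower in RB, against 6.07% and 23.4% of all genes. TOS4 and PLM2, forkhead-associated factors that SBF and MBF act on, differed by 0.86 and 0.77 in RB and were lower in RC by −0.42 and −0.33. ASH1, the repressor of HO in daughter cells, was the gene lower in RB, by −0.23. In OX, CLN3, the G1 cyclin upstream of SBF, was higher by 0.40 and MCM1 by 0.26, while XBP1, a stress-related repressor, was lower by −0.72. XBP1 ran from 0.802 to 2.18 in OX, against 2.33 to 2.54 in RB. The count lower in OX was 5, against 14.6% of all genes, and it was 2 without time point 4. Over all genes, 209 were lower in OX without time point 4, against 832 with it.

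**Figure D5:**
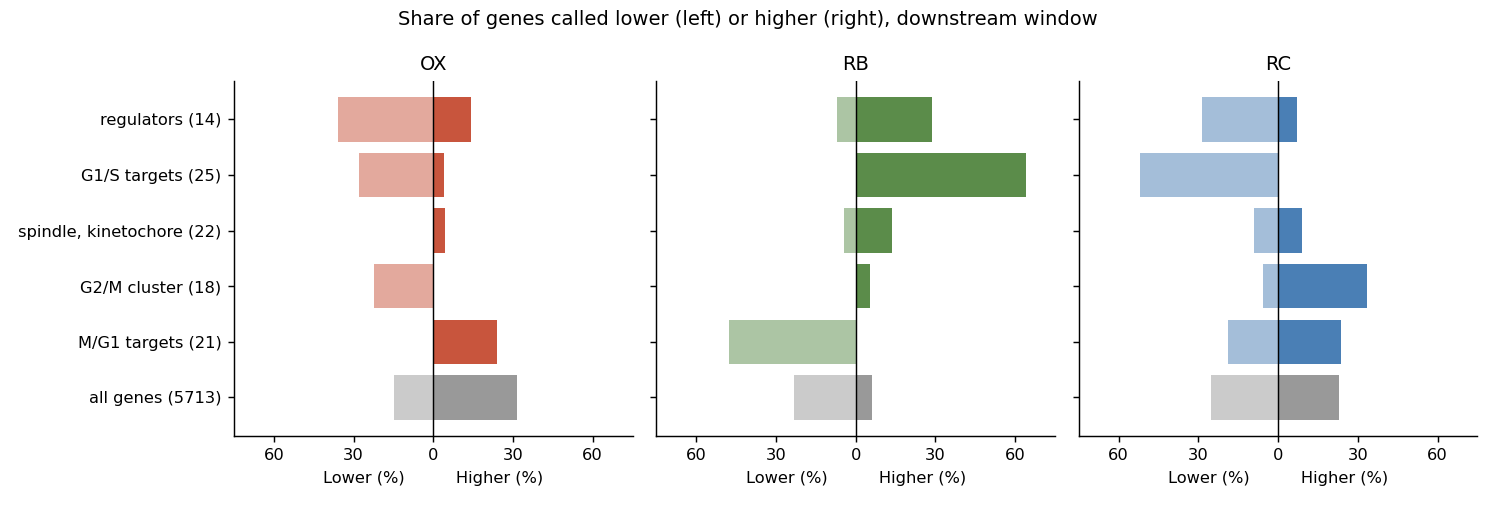
Share of genes called lower (left, pale) or higher (right, dark) in OX, RB and RC in the 300 bp downstream of the start codon, for 5 lists and for all 5713 genes (grey). Numbers of genes tested are in parentheses. The lists were chosen with earlier results of these data known. Of the 25 targets of SBF and MBF, 16 are higher in RB, against 6.07% of all genes.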

How the data were processed

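H3K18ac ChIP-seq coverage was analysed for 16 libraries, 1 per time point. The authors trimmed the reads and wrote coverage signal as whole reads per base (Trimmomatic 0.32, STAR, SAMtools and bedtools are named in the submitters' processing notes, Bowtie in the methods). The methods also name the removal of duplicated reads. The deposited signal is not scaled for depth. It covers 12157105 positions of 17 chromosomes, with a ceiling of 102 reads per base, from which a read length of 51 bp was inferred. The libraries then hold at least 6521927 to 9359719 reads.

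Mean coverage was taken 300 bp on each side of the start codon (RefSeq coordinates, R64) and from 350 to 650 bp past it, relative to the average over all nuclear positions of the same library. The coordinates hold coding regions only, so transcription starts were not used. Genes covered by 5 or more reads per base on average were fitted as log2(level + 0.1) in limma 3.58.1 (R 4.3.3), with contrasts of each phase against the mean of the others, or a cubic in time-point number, and Benjamini-Hochberg adjusted p under 0.05. All 10 members passed the minimum. Extraction and plots used Python 3.11.15, numpy 2.4.6, pandas 2.3.3 and matplotlib 3.10.9. The fit was tested on simulated data with independent noise at each time point. That test does not cover likeness between neighbours in time. Counting intervals (95%) cover counting error only. With 1 library per time point, the spread within a phase is a spread between time points, not between replicates.

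The members and lists were chosen with earlier results of these data known. Besides the members, the genes named are the 5 with the highest r to HCM1 and the 2 for each other member, up to 2 called genes in each direction, phase and list, and genes sharing an upstream window. A gene that this rule also gives is not reported here. Genes named outside this rule, such as neighbours of other windows, were chosen after their values were seen. Alternatives covered pseudocounts, coverage minimum, 3 scalings, depth as a covariate, time model, windows and leaving out each time point. Those of the list counts were chosen after seeing the data. The ceiling correction turned coverage over the ceiling into a rate. No genome sequence was used here, and the other histone marks, H3 and RNA were not analysed here.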

Additional observations from a re-analysis of the deposited data

Results flagged for a closer look

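A library far from the others of its phase was looked for in the RB and RC start levels of the 10 genes, 20 sets of 6 or 7 libraries, by the gap of the highest or lowest library relative to the range (Dixon's criterion). It was found in 2 sets. With 20 sets searched, some flags can arise by chance. The flags are a description only, since time points are not replicates and these levels were in view when the genes were chosen. SWI6 at time point 11 had a start level of 2.19, against 1.48 to 1.70 in the other 5 RB libraries. YOX1 at time point 6, the first of RB, had 1.55, against 1.67 to 1.74 in the others.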

How the results depend on the processing

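No paired analysis was possible because each time point has 1 library. The number of members called over time in the body (8) was 5 with median-of-ratios scaling, 2 with quantile normalization and 4 with the ceiling correction. Of all 4467 genes, 3077 were called, against 2099, 2094 and 2220 with these scalings. With a cubic polynomial of the hours 5 members were called. With cosine and sine, 9 members and 3521 of all genes were called. The 11 phase calls of members in the body became 4 with median-of-ratios scaling and 4 with quantile normalization. Over all genes, those higher in RB in the body went from 1628 to 427 and 501. Those lower in RC there went from 1418 to 918 and 880. With a polynomial of the hours, 1955 genes were called over time in the body and 1893 downstream (3077 and 3669 with time-point numbers). Downstream, genes lower in OX (832) numbered 1440, 1670 and 2268 with median-of-ratios scaling, quantile normalization and the ceiling correction. In the same order, genes higher in RB (347) numbered 785, 999 and 1295, and genes lower in RB (1336) 786, 815 and 627. In the upstream window 2155 genes were higher and 850 lower in RC (1314 and 1443 downstream). In the last 300 bp of the gene, the YOX1 RB difference was −0.28 and the FKH2 RC difference 0.57, both opposite to the body. The cause of these changes was not tested.

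Leaving out 1 time point at a time gave 2753 to 3191 genes over time in the body and 3199 to 3701 downstream, 7 to 9 members over time and 9 to 15 member phase calls. It gave 886 to 1935 genes higher and 209 to 1146 lower in OX, 260 to 479 higher and 947 to 1594 lower in RB, and 1046 to 1555 higher and 1119 to 1594 lower in RC. The lowest OX counts, 886 and 209, were those without time point 4. For the body, phase calls over all genes were not counted in these fits. Calls in the body were lost for YOX1 in OX without time points 4, 5, 7, 9 or 13 (adjusted p up to 0.479), for FKH2 in RC without 2, 5 or 14, and for SWI5 in RB without 3, 7 or 10. The HCM1 RB difference ran from 0.55 to 0.74 and stayed called.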

Other observations

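Outside the 10 genes and the lists, SIM1, a gene of the SUN family that acts on the cell wall, had about the same fold as HCM1 between its lowest and highest start level (3.17-fold, time points 3 and 9), and SVS1 went from 0.575 (time point 4) to 1.44 (time point 8). BFR2 and PHO91, close in course to FKH1 and MBP1, went from 1.00 and 1.03 at time point 12 to 2.71 and 1.95 at time point 4.

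The paralogous repressor genes differed along their length. The ratio of start to body level was 1.12 for YOX1 and 0.963 for YHP1, against 1.39 to 2.57 for the other 8 genes. The upstream side of YHP1 had a fold of 2.72 between time points and its downstream side 1.83, while the folds in HCM1 were 2.87 and 3.44.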
